A study of Mus musculus with 9 samples.

Results

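Collagens and leucine-rich matrix proteoglycans were measured in reporter-sorted cells of the adult mouse brain. The members were the genes whose symbol on the array is a collagen chain (Col, a number, a and a number, without Col8a1), together with 13 genes of matrix or of cells that make matrix: Dcn, Lum, Ogn, Fmod, Bgn, Prelp, Omd, Islr, Mgp, Aldh1a2, Foxc1, Foxc2 and Crabp2. The array held 52 such genes, 39 of them collagens, among 27962 named genes, and 93 of its 41174 probes read them. Of the 52 genes, 51 were measured, and the single probe of Col9a3 was lost to outlier flags. The members were picked by symbol, with earlier results of these data known.

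Cells were sorted by fluorescence from mice aged 6 to 8 weeks and hybridised to 9 one-colour arrays, 3 in each of 3 groups. The first group was DCX-DsRed cells of the hippocampus, from mice that make DsRed, which glows red, wherever the promoter of Dcx is active (Dcx marks newborn neurons). The second was Sox2-GFP cells of the hippocampus, from a second line, in which the promoter of Sox2 drives GFP (Sox2 is a stem cell transcription factor). The third was the Sox2-GFP cells from the other neurogenic niche, the subventricular zone (SVZ) beside the lateral ventricle. Tissue of 10 dissections was pooled per experiment and RNA of 1000 cells was amplified for each array, per the labels' protocols. No group was treated, and both lines carry only their reporter as far as the labels say. The promoter that drives a reporter decides which cells are sorted, so any cell in which it is active, or in which the reporter protein persists, can enter the gate. Nothing in the labels tells whether replicates A, B and C came from separate pools, so the spread behind the p-values is that of these samples and may be technical.

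Collagens are chains that wind around one another into rope-like molecules and build fibrils, sheet-like networks or links between these. Type IV chains form the network of basement membranes, which in the brain surround blood vessels and lie under the pial surface. Small leucine-rich proteoglycans such as decorin, lumican and fibromodulin bind collagen fibrils and regulate their width and spacing. In the brain most fibrillar collagen is made by fibroblasts of the meninges, of the stroma of the choroid plexus and around larger vessels, and little is made by neurons or neural stem cells.

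Levels are log2 signal relative to the 75th percentile of the same array, so 0 is that percentile, and 1 unit is a factor of 2. Arrays do not allow the level of one probe to be set against that of another, so genes are compared only between samples. A probe counted as detected when the scanner software called it well above background. Between 80.2% and 88.3% of all probes were detected per array, and of the 51 members 44 to 46 were detected on the DCX-DsRed arrays, 48 or 49 on the hippocampal Sox2-GFP arrays and 48 to 51 on the SVZ arrays. The mRNAs of Sox2 and Dcx, whose promoters drive the reporters, did not clearly follow the sort. Sox2 was 1.33 to 1.74 in DCX-DsRed cells, -0.92 to 0.96 in hippocampal Sox2-GFP cells and 0.94 to 2.30 in SVZ cells. Dcx was -1.26 to 1.30 in DCX-DsRed cells, -2.85 to -0.17 in hippocampal Sox2-GFP cells and -2.34 to 3.07 in SVZ cells. Neither gene was called in any comparison. A gene was called when its adjusted p in limma, over all 25141 genes tested, was under 0.05. The number of arrays limits the precision.

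Of the 51 members, 3 were called in at least 1 comparison. Between hippocampal Sox2-GFP and DCX-DsRed cells, 3 of 51 members (5.88%) were called and all 3 were higher in Sox2-GFP: Col4a5, Col8a2 and Ogn. Of all genes tested in that comparison, 3.17% were called, 1.75% as higher and 1.43% as lower. Between SVZ Sox2-GFP and hippocampal DCX-DsRed cells only Col4a5 (1.96% of the members) was called, as higher, where 1.55% of all genes were (0.537% higher, 1.01% lower). Between SVZ and hippocampal Sox2-GFP cells limma called 0 members, where 0.39% of all genes were called (0.0438% higher, 0.346% lower). Groups that did not overlap were seen in 15 members in the hippocampal comparison, 10 higher and 5 lower, where 24.7% of all genes had them (11.4% higher, 13.3% lower). For SVZ against DCX-DsRed they were seen in 8 higher and 6 lower members, where 21.0% of all genes had them (10.6% higher, 10.4% lower). Between the regions they were seen in 3 higher and 9 lower members, where 16.9% of all genes had them (8.79% higher, 8.1% lower). The first pair of comparisons shares the DCX-DsRed arrays, and the last shares its arrays with both, so they are not independent. The median difference of the 51 members was 0.19, 0.17 and 0.12 in the same order, beside -0.06, -0.05 and 0.04 over 27783 genes before any filter on dim probes. All members with a value had passed that filter, which kept probes detected on at least 3 of the 9 arrays, and 42 of them were detected on all 9.

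**Figure D1:**
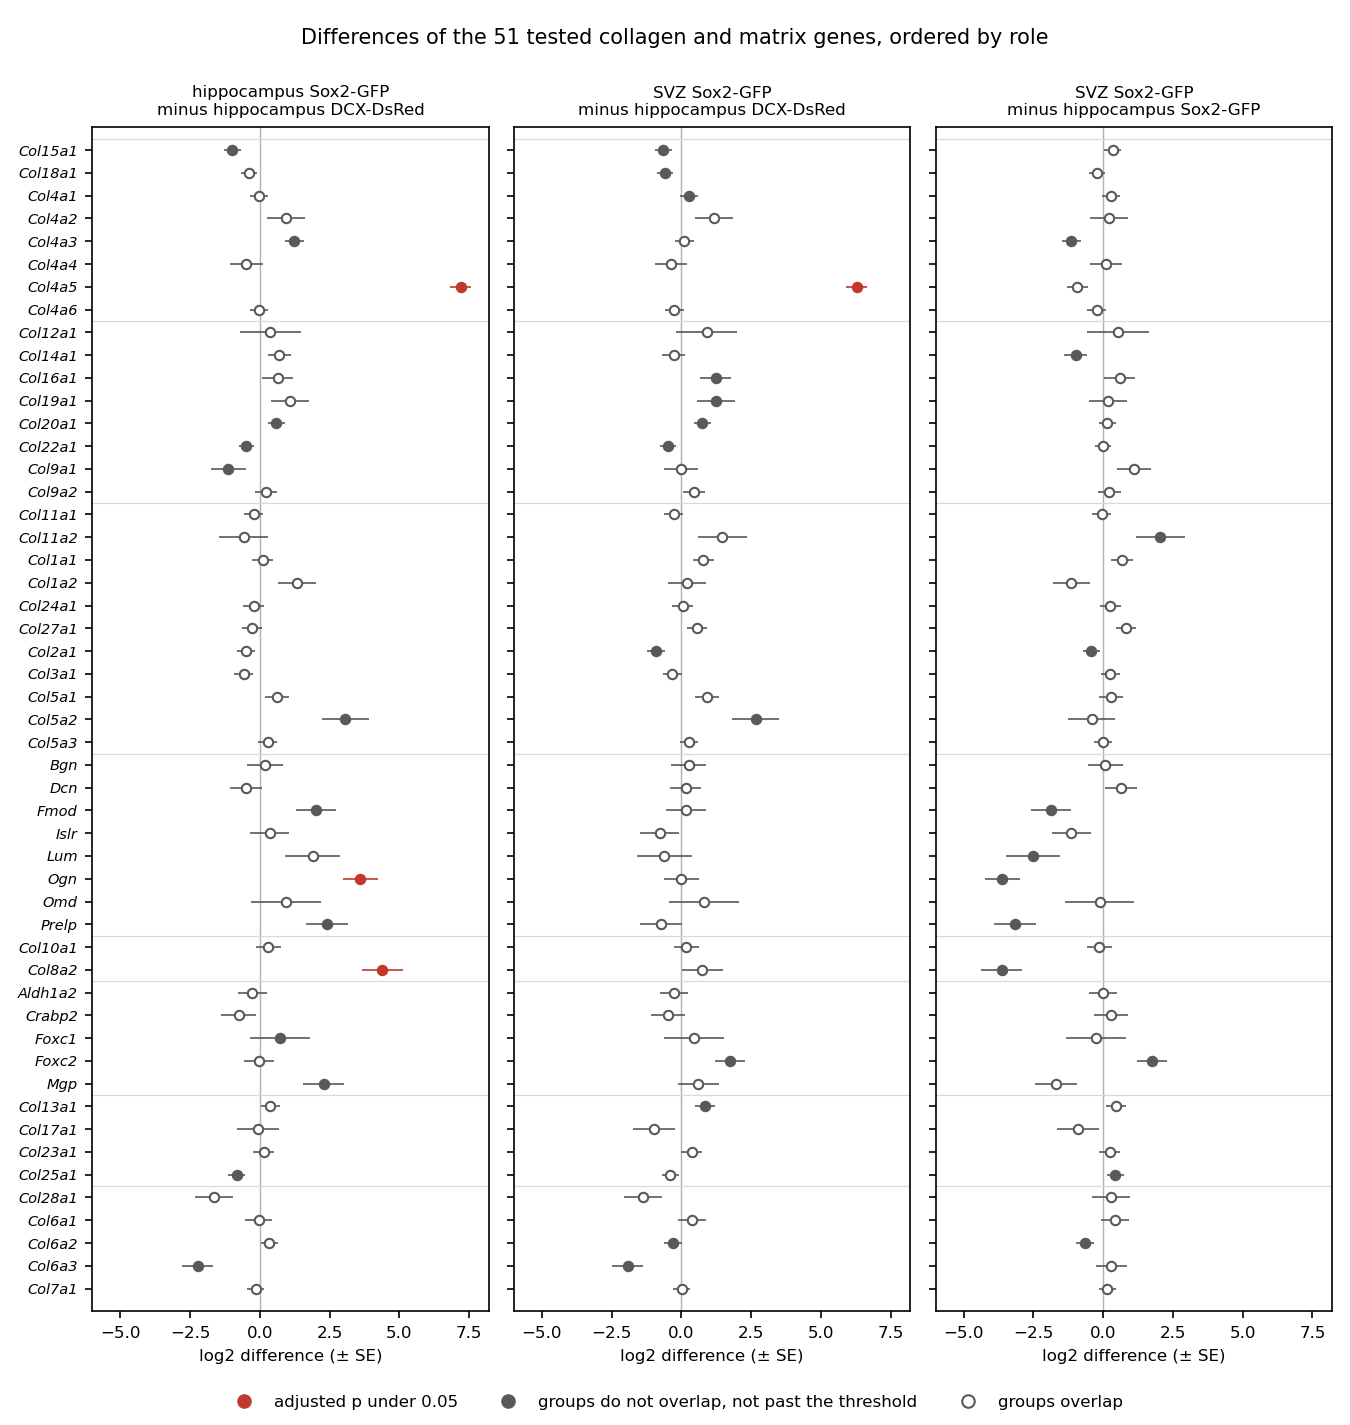
Log2 difference of each of the 51 tested members (horizontal axis, point ± standard error of the limma fit) in the 3 comparisons, with genes in rows grouped by role between the grey lines. Red points passed an adjusted p of 0.05, filled grey points had groups that did not overlap without passing it, and open points had overlapping groups. Col4a5 stands at 7.20 and 6.27 in the comparisons with DCX-DsRed, and the median of all members lies at 0.19, 0.17 and 0.12.

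The basement membrane group had 8 measured members, of which 1 was called in each comparison with DCX-DsRed and 0 between the regions. The called gene was Col4a5, the X-linked chain of type IV collagen that assembles with Col4a3 and Col4a4 in the mature kidney filter and is mutated in Alport syndrome. Its level was -7.39, -7.14 and -6.79 on the DCX-DsRed arrays A, B and C, where its probe never rose well above background. On hippocampal Sox2-GFP arrays it was 0.19, 0.33 and -0.24. On SVZ Sox2-GFP arrays it was -1.08, -0.19 and -1.24. Every Sox2-GFP array of either region therefore lay far above every DCX-DsRed array. The fold over DCX-DsRed was at least 49.5-fold in the hippocampus (measured difference 7.20, SE 0.38, adjusted p = 0.000229) and at least 26.0-fold in the SVZ (6.27, SE 0.38, adjusted p = 0.00087), higher in 3 of 3 arrays each time. A bound of this kind sets the brighter group against the lowest detected signal of each array. It holds only for this scaling and this background subtraction. With another background correction (normexp) the differences were smaller, 3.93 in the hippocampus and 3.20 in the SVZ, and lay under these bounds. Within the slide that held arrays of all groups the measured differences were 6.55 and 6.08, and within the slide that held DCX-DsRed A and B with SVZ A the SVZ difference was 6.19. The regions differed by -0.93 (SE 0.38, adjusted p = 0.438), SVZ minus hippocampus. Only 1 probe read Col4a5.

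No other type IV chain was called. By its brightest probe Col4a6, which lies beside Col4a5 in head-to-head orientation on chromosome X, stayed between -0.74 and 0.17 on the 9 arrays. Col4a1, a chain of the ubiquitous type IV network, stayed between -0.23 and 0.59 by its brighter probe. The brighter probe of its partner Col4a2 ranged from -0.24 to 2.43, with SVZ C and hippocampal Sox2-GFP A and B at the top (2.43, 1.37 and 1.58), and its groups overlapped. A dimmer Col4a2 probe was 1.05, 0.74 and 0.77 in hippocampal Sox2-GFP cells, above all DCX-DsRed values (-0.13, -0.78 and 0.01), with a difference of 1.15 and an adjusted p of 0.163 when each probe was fitted on its own. Col4a3 was -0.44, -0.53 and -0.31 in hippocampal Sox2-GFP cells, above all DCX-DsRed (-1.72, -1.25 and -2.03) and all SVZ values (-1.16, -1.74 and -1.82). That difference of 1.24 (SE 0.34) had an adjusted p of 0.101, and -1.14 between regions had 0.273. A second Col4a3 probe was also higher on every hippocampal Sox2-GFP array than on every DCX-DsRed array (a 5.66-fold difference), with an adjusted p of 0.0503 in that fit of single probes, and the dimmest probe overlapped there. Taking the median over its probes, Col4a3 was called in the hippocampus (difference 2.00, adjusted p = 0.0269). Col4a4, the head-to-head neighbour of Col4a3 on chromosome 1, had a brighter probe that overlapped between all groups, with 0.89, 1.54 and 1.29 in DCX-DsRed, 0.45, 0.22 and 1.61 in hippocampal Sox2-GFP and 2.01, 0.13 and 0.50 in SVZ cells. A dimmer Col4a4 probe was higher on every array in hippocampal Sox2-GFP cells (-0.29, -1.41 and 0.81 against -1.82, -1.55 and -2.63, adjusted p = 0.197 in the same fit).

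Col15a1 and Col18a1 encode the multiplexin collagens of basement membranes, and the end fragment of the second is endostatin, an inhibitor of vessel growth. Col18a1 was 2.20, 1.82 and 2.43 in hippocampal Sox2-GFP cells, and its SVZ values (2.03, 1.92 and 1.87) lay below its DCX-DsRed values (2.60, 2.61 and 2.40) with a difference of -0.60 that did not pass the test (adjusted p = 0.424). Col15a1 was -1.57, -1.97 and -1.99 in DCX-DsRed cells, -2.48, -3.03 and -2.98 in hippocampal Sox2-GFP cells and -2.47, -2.52 and -2.47 in SVZ cells. It was thus lower on every Sox2-GFP array, with a difference of -0.99 (adjusted p = 0.138) in the hippocampus and -0.65 (adjusted p = 0.398) in the SVZ.

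Of the 2 network collagens, Col8a2 was called in the hippocampus and Col10a1, known from growing cartilage, was not called in any comparison. Col10a1 was 0.57, 0.52 and -0.17 in DCX-DsRed, 0.60, 0.49 and 0.74 in hippocampal Sox2-GFP and 1.40, -0.13 and 0.17 in SVZ cells, with overlapping groups throughout. Col8a2, a chain of the hexagonal type VIII network known from the corneal endothelium's basement membrane, was -3.98, -3.70 and -4.69 in DCX-DsRed cells. In hippocampal Sox2-GFP cells it was 0.01, -0.52 and 1.26. In SVZ Sox2-GFP cells it was -3.71, -4.54 and -1.89. All 3 hippocampal Sox2-GFP arrays were thus above the 6 other arrays, and the SVZ arrays overlapped those of DCX-DsRed. The rise over DCX-DsRed was 20.8-fold (difference 4.38, SE 0.74, adjusted p = 0.021). Between the regions the difference was -3.63 (adjusted p = 0.111), SVZ minus hippocampus. The call was lost without any one of DCX-DsRed A, B or C or hippocampal Sox2-GFP A (adjusted p between 0.0621 and 0.0755), with folds between 17.1 and 24.1. Within the slide that held arrays of all groups, where hippocampal Sox2-GFP has only replicate C, the difference was 5.95.

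Among the 8 leucine-rich proteoglycans and relatives the median difference between hippocampal Sox2-GFP and DCX-DsRed cells was 1.42, with 1 member called higher and 3 whose groups did not overlap, all higher. Of all genes tested, 11.4% had groups that did not overlap in that direction. Between SVZ and hippocampal Sox2-GFP the median was -1.50, with 0 called and 4 whose groups did not overlap, all lower in SVZ, where 8.1% of all genes were. Against DCX-DsRed the SVZ median was 0.07 and none of the 8 had groups that did not overlap.

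The called gene was Ogn, which encodes osteoglycin (mimecan), a small leucine-rich protein of connective tissue. Ogn was -3.78, -4.13 and -4.98 in DCX-DsRed cells. It was -1.35, -1.45 and 0.71 in hippocampal Sox2-GFP cells. In SVZ Sox2-GFP cells it was -3.94, -4.27 and -4.72, within the range of DCX-DsRed. The rise in the hippocampus was 12.2-fold (difference 3.60, SE 0.63, adjusted p = 0.0244) and 7.46-fold without hippocampal Sox2-GFP C (adjusted p = 0.0215). Ogn lost the call without DCX-DsRed A, B or C or hippocampal Sox2-GFP A (adjusted p between 0.0510 and 0.0765) and when only the groups compared were fitted (0.0609). Within the slide shared by all groups, which holds only replicate C of hippocampal Sox2-GFP, the difference was 5.69. Between the regions Ogn differed by -3.62 (adjusted p = 0.0656). Omd, which encodes osteomodulin and neighbours Ogn on chromosome 13, did not follow it: its values overlapped, with -1.83 on SVZ A and -1.94 on hippocampal Sox2-GFP C at the top and -6.48 on DCX-DsRed C at the bottom.

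Prelp and Fmod had groups that did not overlap in the same direction without passing the test. Prelp, whose product anchors basement membranes to connective tissue, was 0.63, 1.54 and 2.93 in hippocampal Sox2-GFP cells, -0.60, -0.34 and -1.19 in DCX-DsRed cells and -0.27, -2.75 and -1.33 in SVZ cells (adjusted p = 0.145 and 0.175). Fmod, fibromodulin, was -1.45, -1.41 and 1.37 in hippocampal Sox2-GFP cells, and between -2.68 and -1.96 on the 6 other arrays (adjusted p = 0.198 and 0.412). In Fmod the value of replicate C sets the size: without it the fold over DCX-DsRed fell from 4.07 to 2.13. Lum, lumican, was detected on only 3 arrays and stood highest on hippocampal Sox2-GFP C at -2.13, with all others at or below -4.73.

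Decorin and biglycan, the best-known members of the family, had overlapping groups by their brightest probes. Dcn lay between -3.72 and -1.32 on the 9 arrays, with hippocampal Sox2-GFP C lowest. Its difference was -0.50 in the hippocampus (SE 0.57, adjusted p = 0.708). Bgn by its brighter probe was -0.65, -0.46 and -1.57 in DCX-DsRed, 0.47, -0.84 and -1.76 in hippocampal Sox2-GFP and 0.07, -0.77 and -1.22 in SVZ cells, again with hippocampal Sox2-GFP C lowest. A dim Bgn probe was -3.57, -4.82 and -5.56 in hippocampal Sox2-GFP cells and detected on all 3 of those arrays. It was -7.08, -7.55 and -7.35 in DCX-DsRed cells, never well above background, which is at least 1.85-fold lower (adjusted p = 0.394 in the fit of single probes). In SVZ cells that probe was -1.83, -8.07 and -6.51. On hippocampal Sox2-GFP C Ogn, Prelp, Fmod and Lum were at their highest while Dcn and the brighter probes of Bgn and Islr were at their lowest.

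**Figure D2:**
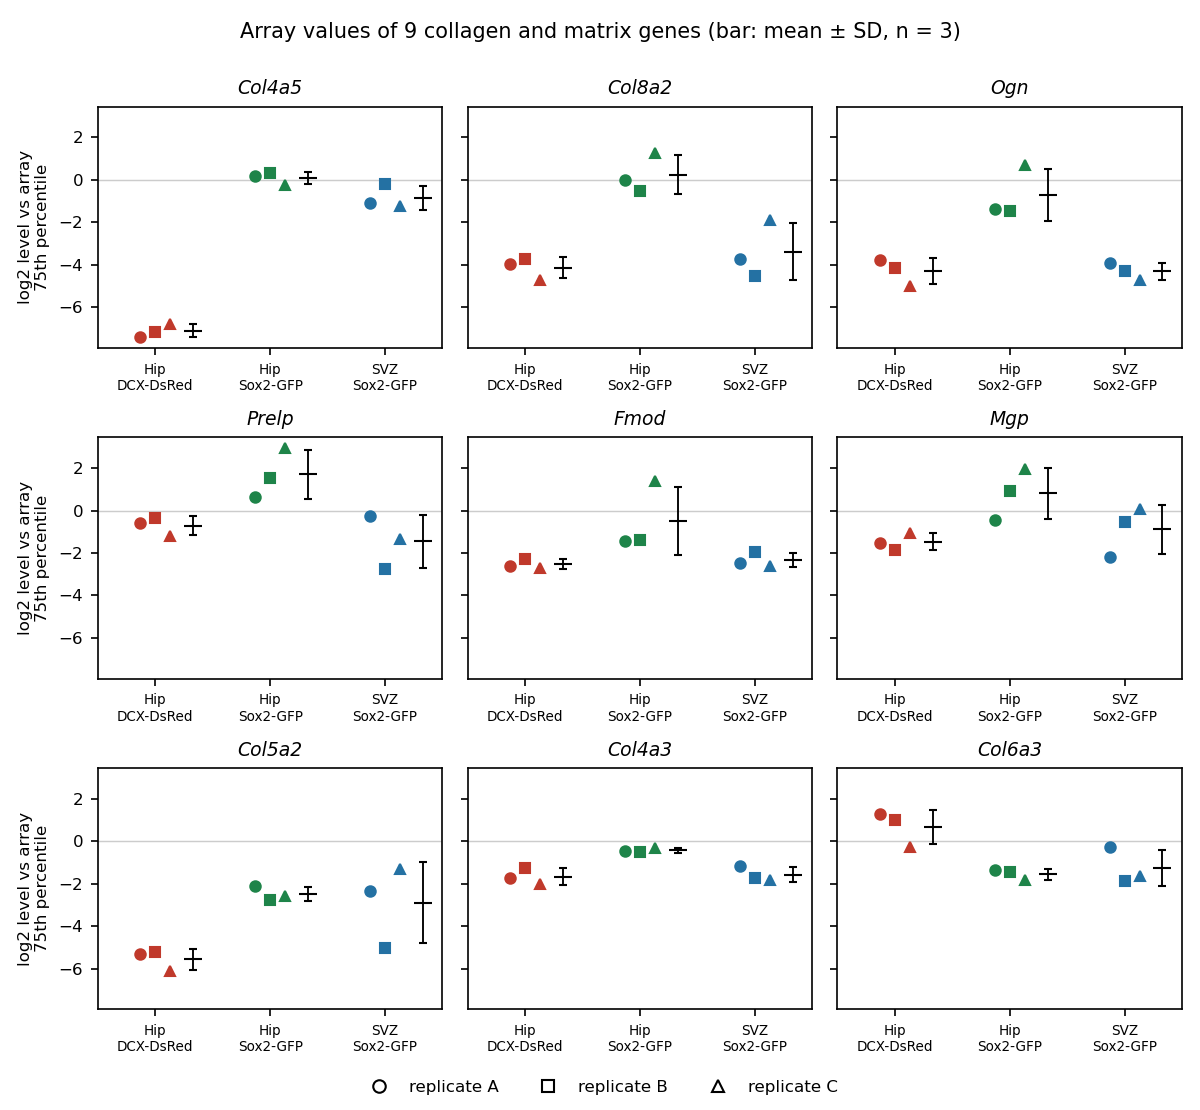
Level of 9 members on each array (vertical axis, log2 relative to the array's 75th percentile), with colours for the 3 groups, symbols for replicates A, B and C, and a bar for the mean ± SD of 3 arrays. Col4a5 is high in both Sox2-GFP groups, the hippocampal Sox2-GFP points of Col8a2 and Ogn lie above all others of those genes, and Col6a3 is highest in DCX-DsRed, where its difference did not pass the test.

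RefSeq holds a window before the start of 39 of the members (42 windows, build GRCm38.p6). The bases upstream of the start of the 3 called genes are shown because they are the members with a called difference, all on the plus strand. Capitals mark matches on either strand to any of 3 short motifs, where matches that overlap run together. One is TATAAA, the core of the TATA box. Another is CCAAT in promoters of many genes. The last is GGGCGG, known as the GC box. For Col4a5, the last bases of its 250-base window are left out because another RefSeq model already transcribes them.
Col4a5, chrX:141475169-141475369: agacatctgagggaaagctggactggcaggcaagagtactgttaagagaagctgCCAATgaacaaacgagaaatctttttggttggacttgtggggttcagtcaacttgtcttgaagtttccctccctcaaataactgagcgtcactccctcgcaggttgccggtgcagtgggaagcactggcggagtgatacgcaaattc
Col8a2, chr4:126286544-126286793: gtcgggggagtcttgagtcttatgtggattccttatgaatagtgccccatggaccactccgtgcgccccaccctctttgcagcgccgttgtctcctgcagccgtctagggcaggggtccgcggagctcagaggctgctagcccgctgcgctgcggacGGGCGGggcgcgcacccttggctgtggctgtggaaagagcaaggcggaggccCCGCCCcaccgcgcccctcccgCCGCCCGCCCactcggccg
Ogn, chr13:49607765-49608014: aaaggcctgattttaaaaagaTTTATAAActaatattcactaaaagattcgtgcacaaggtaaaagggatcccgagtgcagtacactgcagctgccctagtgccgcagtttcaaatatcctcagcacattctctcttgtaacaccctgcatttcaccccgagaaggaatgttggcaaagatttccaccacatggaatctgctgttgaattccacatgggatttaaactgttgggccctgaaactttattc
The 3 windows of 250 bases differ in composition, with 70.0% G and C before Col8a2, 54.0% before Col4a5 and 42.0% before Ogn, beside a median of 58.6% over the 42 member windows and 52.4% over all 32851 windows. The stretch printed for Col4a5 has 49.8%, and the rest of its window holds a match to GGGCGG. Ogn is one of 6 member windows with TATAAA (14.3%, against 12.4% of all windows). CCAAT stood in 15 member windows (35.7%, against 33.8%), and GGGCGG in 20 (47.6%, against 32.7%). A match is only a match of letters, and the members were not compared by motif.

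Fibrillar collagens, the chains of classical fibrils, numbered 11, and 0 were called in any of the comparisons. Their median difference was -0.22 in the hippocampus, 0.26 for SVZ against DCX-DsRed and 0.26 between regions. Col1a1, the main chain of type I collagen, was 0.94, 0.50 and 0.17 in DCX-DsRed, 1.04, 0.66 and 0.22 in hippocampal Sox2-GFP and 1.46, 1.66 and 0.85 in SVZ cells. Col3a1, the type III chain, ranged from -1.72 to -0.33 by its brightest probe. By these probes both had overlapping groups in every comparison. A dimmer Col3a1 probe was higher on every SVZ array (-0.75, -1.09 and -0.71) than on every DCX-DsRed array (-1.14, -1.39 and -1.44), with an adjusted p of 0.585 in the fit of single probes. Col1a2, the partner of Col1a1, was 2.40 on hippocampal Sox2-GFP C and at or below 0.44 on the 8 other arrays. Col5a2, a chain of the type V collagen that nucleates fibrils, was -5.32, -5.22 and -6.12 in DCX-DsRed cells and was detected on 1 of those arrays. It was -2.10, -2.76 and -2.60 in hippocampal Sox2-GFP cells and -2.33, -5.02 and -1.32 in SVZ cells. All 6 Sox2-GFP arrays lay above the 3 of DCX-DsRed, and the differences of 3.07 (SE 0.85, adjusted p = 0.104) and 2.66 (SE 0.85, adjusted p = 0.201) did not pass. Without SVZ B both passed (adjusted p = 0.0186 and 0.0301), and the hippocampal difference also passed when only the groups compared were fitted (adjusted p = 0.0211). By its brighter probe Col11a2 was higher on every SVZ array (1.08, 1.75 and 2.09) than on every hippocampal Sox2-GFP array (0.56, 0.68 and -2.46), with an adjusted p of 0.455. By its dimmer probe these groups overlapped (1.07, -0.08 and 0.10 against -0.21, 0.09 and -1.07). Col2a1, the cartilage chain, was by its brightest probe lower on every SVZ array (0.05, 0.04 and -0.33) than on every DCX-DsRed array (1.09, 0.79 and 0.62), with an adjusted p of 0.232.

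FACIT collagens, which sit on the surface of fibrils and link them to other matrix, had 8 measured members and 0 calls. Col20a1 was 1.45, 1.29 and 0.94 in DCX-DsRed, 1.79, 2.08 and 1.59 in hippocampal Sox2-GFP and 1.88, 2.07 and 1.97 in SVZ cells. It was thus higher on every Sox2-GFP array of either region, with differences of 0.59 and 0.75 that did not pass (adjusted p = 0.366 and 0.313). Col22a1 lay the other way, at -0.37, -0.58 and -0.79 in DCX-DsRed, -1.09, -0.93 and -1.17 in hippocampal Sox2-GFP and -0.89, -1.17 and -1.15 in SVZ cells (adjusted p = 0.441 and 0.515). Col9a2, a chain of the type IX collagen of cartilage, overlapped in all comparisons, with 0.75, 0.68 and 1.30, then 1.18, 1.75 and 0.51, then 1.09, 1.61 and 1.42 in the same order of groups. Its partner Col9a1 was lower on every hippocampal Sox2-GFP array (-2.62, -2.62 and -3.58) than on every DCX-DsRed array (-2.17, -1.77 and -1.48), with a difference of -1.13 (adjusted p = 0.41), and was -2.28, -2.79 and -0.42 in SVZ cells.

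By the brightest probe of each, another pair of FACIT chains was higher on every SVZ array than on every DCX-DsRed array without passing the test. Col16a1 was -0.04, 0.60 and 1.16 in SVZ cells and -0.12, -0.56 and -1.30 in DCX-DsRed cells (adjusted p = 0.381), with -0.11, -0.84 and 0.91 in hippocampal Sox2-GFP cells. By a dimmer Col16a1 probe these groups overlapped, with 1.17, 0.18 and -1.83 in SVZ and -1.39, -0.78 and -0.71 in DCX-DsRed cells. That probe was -1.46, -0.34 and -4.90 in hippocampal Sox2-GFP cells. Col19a1 was near background, at -3.30, -5.25 and -5.43 in SVZ cells and -6.38, -5.69 and -5.61 in DCX-DsRed cells (adjusted p = 0.495), with -3.79, -4.97 and -5.71 in hippocampal Sox2-GFP cells. Col12a1 was detected on 3 arrays, with -3.09 on SVZ B and values at or below -5.78 elsewhere.

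The type VI, VII and XXVIII chains had 5 members and 0 calls. Col6a3, the large chain of the beaded type VI filaments found around most cells, was 1.26, 1.02 and -0.26 in DCX-DsRed cells. It was -1.37, -1.43 and -1.85 in hippocampal Sox2-GFP cells and -0.29, -1.85 and -1.64 in SVZ cells, so the DCX-DsRed group lay above both others, by a narrow margin between DCX-DsRed C and SVZ A. The differences were -2.22 (SE 0.55, adjusted p = 0.0752) and -1.93 (SE 0.55, adjusted p = 0.154). Blocking on slide, both passed (adjusted p = 0.0483 and 0.0352) at smaller differences of -1.57 and -1.46. Col6a2, a chain that pairs with it, was -0.18, -0.02 and -0.20 in DCX-DsRed, 0.08, -0.09 and 0.63 in hippocampal Sox2-GFP and -0.66, -0.31 and -0.36 in SVZ cells, lowest in SVZ without passing (adjusted p = 0.504 between the regions and 0.754 against DCX-DsRed). Col6a1 overlapped in every comparison. Col7a1, the chain of the fibrils that anchor skin to its basement membrane, varied least of the 51 measured members, between 2.20 on DCX-DsRed C and 2.89 on DCX-DsRed A. Col28a1 had -3.03 and -3.20 on DCX-DsRed A and B, the highest of 9 values, and -4.68 on DCX-DsRed C.

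The 4 transmembrane collagens, which are anchored in the cell membrane and shed, had 0 calls. Col25a1, a neuronal member known as the precursor of a component of amyloid plaques, was 1.57, 1.76 and 1.23 in DCX-DsRed cells and 0.73, 0.63 and 0.69 in hippocampal Sox2-GFP cells. That difference of -0.84 (SE 0.30) had an adjusted p of 0.207, and the SVZ arrays (1.33, 0.80 and 1.22) lay above the hippocampal Sox2-GFP arrays and overlapped DCX-DsRed. Col23a1 was 0.32, 0.17 and -0.59 in DCX-DsRed, 0.06, 0.48 and -0.24 in hippocampal Sox2-GFP and 0.58, 0.50 and -0.08 in SVZ cells, with overlapping groups. The probes of Col13a1 went opposite ways. Its brighter probe was higher on every SVZ array (-0.78, -1.43 and -1.34) than on every DCX-DsRed array (-2.02, -2.01 and -2.09), with a difference of 0.85 (adjusted p = 0.337). Its dimmer probe was lower on every SVZ array (-5.31, -6.32 and -5.96) than on every DCX-DsRed array (-3.67, -3.34 and -3.32), with a difference of -2.42 (adjusted p = 0.115 in the fit of single probes). That probe was also lower on every hippocampal Sox2-GFP array (-5.90, -6.30 and -3.99, adjusted p = 0.151).

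The 5 remaining members are not structural matrix proteins of the collagen or leucine-rich families, and 0 were called. Mgp, a calcium-binding matrix protein that keeps vessels from calcifying, was -0.46, 0.92 and 1.97 in hippocampal Sox2-GFP cells, above all DCX-DsRed values (-1.54, -1.84 and -1.05), with a difference of 2.29 (adjusted p = 0.159). Its SVZ values of -2.17, -0.53 and 0.06 overlapped both. Aldh1a2, which makes retinoic acid in the meninges, lay between -2.86 and -1.07. Crabp2, which carries retinoic acid to the nucleus, was 0.73, 0.32 and -1.33 in DCX-DsRed, -0.33, -1.81 and -0.43 in hippocampal Sox2-GFP and -0.87, -0.27 and -0.58 in SVZ cells. Both overlapped between all groups. Foxc2, a transcription factor of mesenchyme and lymphatic vessels, was -3.54, -3.41 and -3.69 on the SVZ arrays. It was -5.12, -4.84 and -5.87 in DCX-DsRed cells and -4.27, -5.29 and -6.37 in hippocampal Sox2-GFP cells, and was detected on 1 array of each of those groups. The SVZ differences of 1.73 (adjusted p = 0.194) and 1.76 (adjusted p = 0.295) did not pass. Foxc1, its relative that meningeal fibroblasts require, was -1.86 on SVZ A and at or below -4.29 on all other arrays. Its hippocampal Sox2-GFP values (-4.29, -4.40 and -4.89) lay above its DCX-DsRed values (-5.21, -5.58 and -4.93) without a call. It was detected on all 3 hippocampal Sox2-GFP arrays and on 1 array of each other group.

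Over the 9 arrays the median range of a member was 1.88, against 2.45 over all genes. A range under 1 was seen in 7 of 51 members (13.7%, against 8.46% of all genes). Array by array, hippocampal Sox2-GFP C gave the highest value of 10 members and the lowest of 15, DCX-DsRed A the highest of 14, and DCX-DsRed C the lowest of 17. Hippocampal Sox2-GFP C also stood apart in the summed level of astrocyte markers, at 8.44 times the array's 75th percentile, against 62.7 and 71.8 on hippocampal Sox2-GFP A and B. Col4a5, Col8a2 and Ogn were all called without it.

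**Figure D3:**
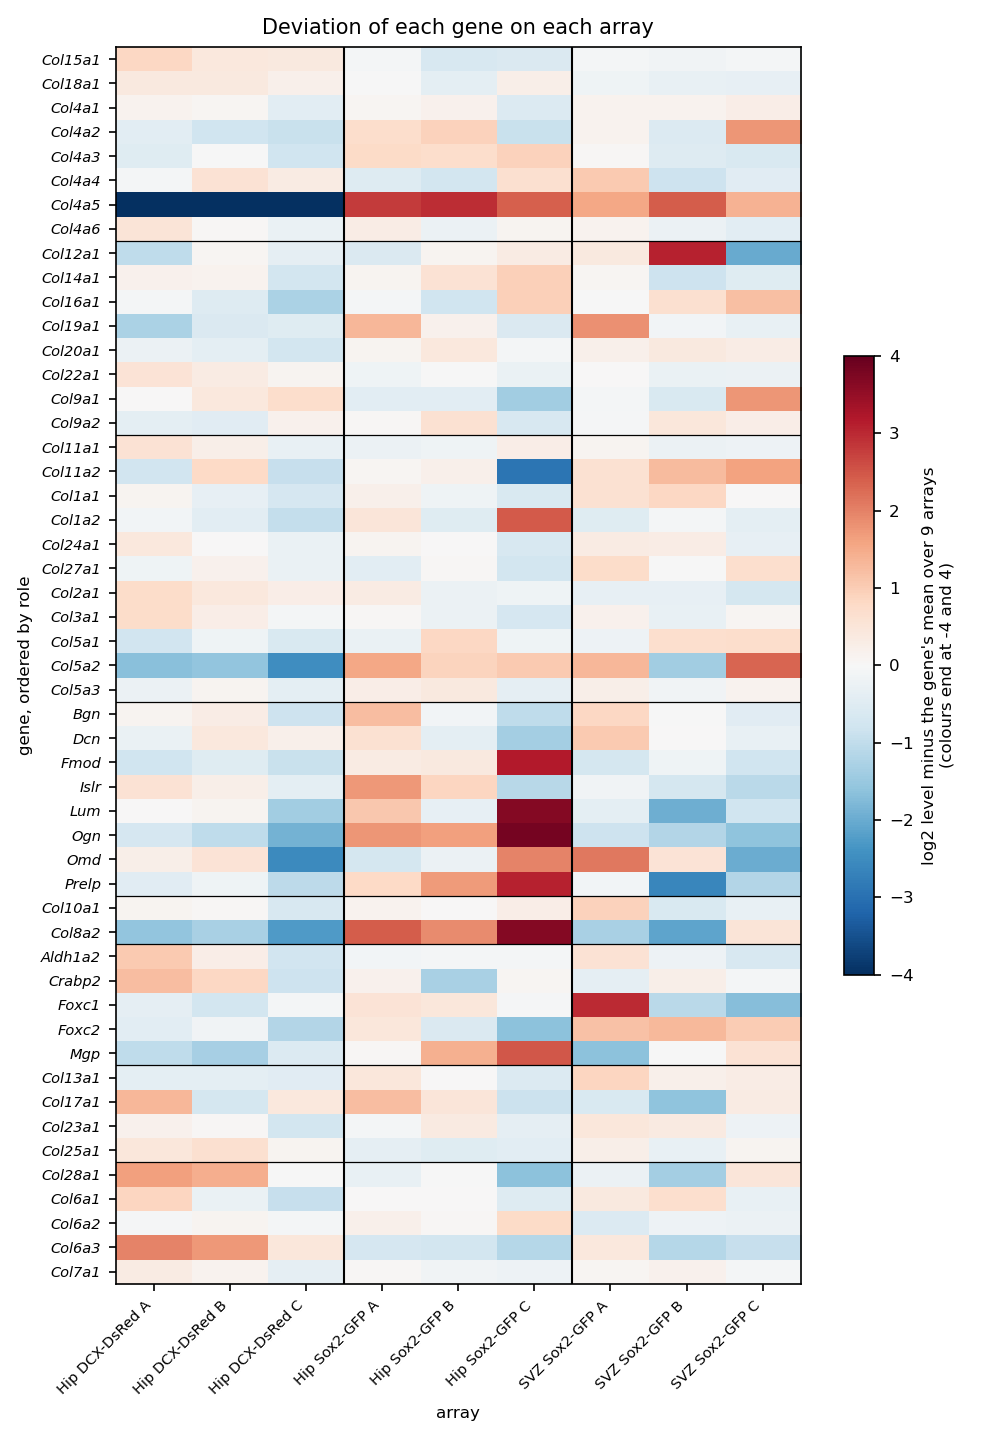
Deviation of each member (rows, grouped by role between lines) on each of the 9 arrays (columns, in 3 groups) from the gene's own mean, on the log2 scale, red for higher and blue for lower. Col4a5 separates DCX-DsRed from both Sox2-GFP groups, and the darkest red cells of Ogn, Lum, Fmod, Prelp and Col8a2 stand on hippocampal Sox2-GFP C.

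Several probes of a gene did not always tell the same story. Of the 51 members, 24 had more than 1 kept probe. In the hippocampal comparison the probes of a gene differed in their log2 difference by more than 1 in 14 of the 24 (58.3%, against 52.9% of 7920 genes with several kept probes), and in 9 they had opposite signs. For SVZ against DCX-DsRed they differed by more than 1 in 11 (45.8%, against 49.5%) and had opposite signs in 11. Between the regions they differed by more than 1 in 8 (33.3%, against 50.4%) and had opposite signs in 14. No share over all genes is given for opposite signs, so those counts cannot be called high or low. With every probe fitted on its own, an alternative chosen after seeing the data, Islr, Col27a1 and Col2a1 were also called in the hippocampal comparison and Col5a3 in that of SVZ against DCX-DsRed. Each of these genes had at least 1 other probe, the brightest of the gene, that was not called.

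Islr encodes a leucine-rich repeat protein that marks mesenchymal stromal cells. Its dimmer probe was -2.18, -3.70 and -3.80 in hippocampal Sox2-GFP cells and was detected on all 3 of those arrays. On no DCX-DsRed array (-6.97, -7.67 and -7.42) or SVZ array (-6.63, -7.45 and -6.34) was it well above background. The folds were at least 4.97-fold over DCX-DsRed (adjusted p = 0.0084 over all probes) and at least 7.56-fold over SVZ (adjusted p = 0.0376). The brighter probe overlapped between all groups (0.17, -0.72 and -2.69 in hippocampal Sox2-GFP cells against -1.01, -1.34 and -1.96 in DCX-DsRed cells). A dimmer probe of Col5a3, a type V chain, was -2.83, -2.70 and -2.73 in DCX-DsRed cells against 0.24, 0.66 and 0.81 in SVZ cells, a 10.0-fold rise (adjusted p = 0.0481), with 0.22, 0.54 and -1.94 in hippocampal Sox2-GFP cells (adjusted p = 0.0951). Its brighter probe stayed between -1.21 and -0.45. A probe of Col27a1 was 0.53, 0.43 and 0.51 in DCX-DsRed cells and -1.37, -1.66 and -2.17 in hippocampal Sox2-GFP cells, a fall of 4.67-fold (adjusted p = 0.0451), where the brighter probe differed by -0.28. The dimmest probe of Col2a1 was detected on all DCX-DsRed arrays (-4.38, -4.95 and -2.91) and on no Sox2-GFP array, at least 2.72-fold lower in the hippocampus (adjusted p = 0.0285), and its other probes differed by -0.50 and -1.10 in the same direction.

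**Figure D4:**
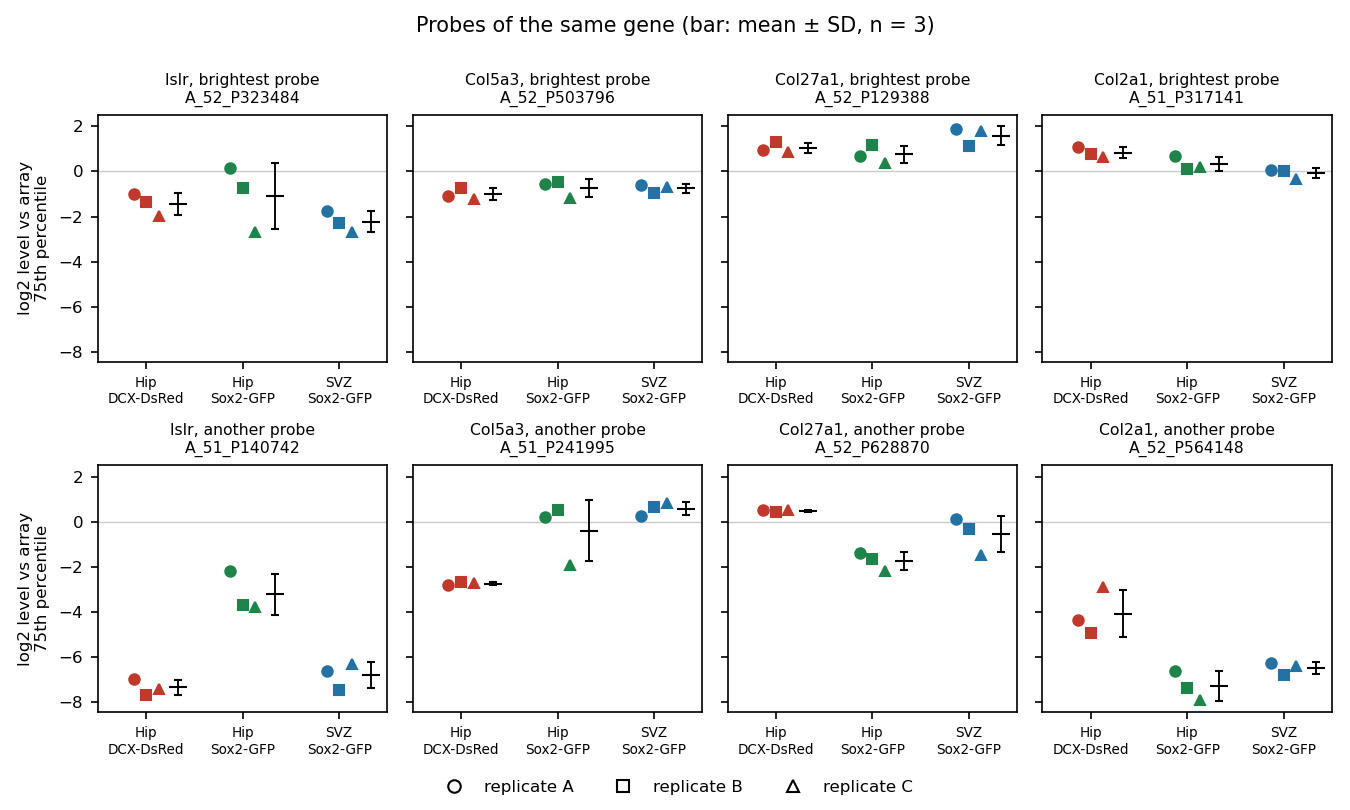
Levels of the brightest probe (top) and of one dimmer probe (bottom) of Islr, Col5a3, Col27a1 and Col2a1 on each array, on the log2 scale, with colours for groups, symbols for replicates and bars for mean ± SD of 3 arrays. In at least 1 comparison of each gene the dimmer probe separates groups that overlap by the brightest, and levels are to be compared within a panel only.

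Genes that build, bind or accompany collagen were given from lists and were mostly not called, as was true of all genes. Of all genes tested, 3.17% were called in the hippocampal comparison, 1.55% for SVZ against DCX-DsRed and 0.39% between the regions. Of 27 tested genes that modify or process collagen, 1 was called: P4ha2, a catalytic subunit of the enzyme that hydroxylates collagen prolines. P4ha2 was 0.70 ± 1.01 (SD, n = 3) in hippocampal Sox2-GFP cells and -0.06 ± 1.28 in SVZ cells, against -4.29 ± 0.63 in DCX-DsRed cells. Its rise was 31.8-fold (adjusted p = 0.0139) and 18.8-fold (adjusted p = 0.0379). Of 11 basement membrane partners, the laminin chain Lamb1 was called in the hippocampus (44.9-fold, adjusted p = 0.0269), and lost the call without hippocampal Sox2-GFP C (30.6-fold, adjusted p = 0.0596). Of 13 interstitial matrix glycoproteins, Fbln5, a fibulin of elastic fibres, was called there (at least 7.58-fold, adjusted p = 0.04), and the fibrillin gene Fbn1 was not (18.4-fold, adjusted p = 0.0531). Of 13 retinoic acid genes, Rdh10, an enzyme of retinoic acid synthesis, was called there (17.1-fold, adjusted p = 0.0484) and not without hippocampal Sox2-GFP C (11.9-fold, adjusted p = 0.105). The 10 collagen receptors, with integrins and discoidin domain receptors, had 0 calls in limma, as did 8 further leucine-rich proteoglycan genes, of which Ecm2 had the smallest p (adjusted p = 0.0741). Between the regions 0 genes of these lists were called.

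Markers of some other cell types also differed between the groups. Of the 9 choroid plexus markers measured, 7 were called higher in the hippocampal comparison and 4 were called lower in SVZ cells between the regions. Their summed level, in multiples of the array's 75th percentile, was 52.9 to 181 in hippocampal Sox2-GFP cells, highest on replicate C, against 2.27 to 3.06 in DCX-DsRed cells and a like range in SVZ cells (2.25, 2.34 and, highest, 3.30). The defining marker Ttr was 5.42, 5.05 and 6.45 on the hippocampal Sox2-GFP arrays and at or below -1.17 on all others. Of 6 ependymal markers, 4 were called higher in hippocampal Sox2-GFP cells, with sums of 9.38 to 14.8 against 0.419 to 0.723. In SVZ cells the ependymal sums were 1.46 to 3.52, and 1 of the 6, Enkur, was called higher than in DCX-DsRed cells. Col8a2 and Ogn were called in the hippocampal comparison, in which these sums differ. Col4a5 was called in that comparison and also for SVZ against DCX-DsRed, where the choroid plexus sums overlapped and the ependymal sums did not. Astrocyte sums did not overlap there either, at 61.7 to 125 in SVZ and 21.8 to 32.5 in DCX-DsRed cells. The oligodendrocyte and mural sums given below were lower in SVZ than in DCX-DsRed cells. The part of these cells in the results was not tested, and in bulk samples fewer cells of a type and less RNA per cell cannot be told apart.

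The summed level of fibroblast markers that are not members depended on 1 gene. Of 15 tested meningeal and perivascular fibroblast markers, Zic1 was called higher in the hippocampal comparison (8.54-fold, adjusted p = 0.0329, and 5.47-fold without hippocampal Sox2-GFP C) and Ptgds lower in SVZ cells against DCX-DsRed (22.5-fold, adjusted p = 0.0379). Their summed level was 17.0 to 61.7 in hippocampal Sox2-GFP cells, 32.6 to 36.7 in DCX-DsRed cells and 7.90 to 13.4 in SVZ cells. Ptgds, which encodes a prostaglandin D synthase, made up most of that sum in DCX-DsRed cells, up to 80.7%, and at most 43.8% on any Sox2-GFP array. Without it, a choice made after seeing the data, the sum of the 15 others was 12.3 to 37.3 in hippocampal Sox2-GFP cells, highest on replicate C. That lies above every DCX-DsRed array (6.29 to 9.17) and every SVZ array (7.34 to 9.82). In Slc13a4, Igfbp2 and Pdgfra the hippocampal Sox2-GFP arrays lay above all 6 others without a call. Slc13a4 was 1.96, 1.69 and 3.24 there against 0.99, 0.68 and -0.02 in DCX-DsRed cells (adjusted p = 0.151). Igfbp2 was 2.99, 2.65 and 4.39 against 2.34, 2.17 and 1.99 (adjusted p = 0.249). Pdgfra was -0.61, -0.83 and 2.37 against -1.25, -2.58 and -1.94 (adjusted p = 0.21). Slc6a13 was lower on every hippocampal Sox2-GFP array (-1.890, -2.084 and -1.910) than on every DCX-DsRed array (-1.368, -1.544 and -1.887). The median level of the 16 markers on an array overlapped between all groups. It was -2.46 to -1.94 in hippocampal Sox2-GFP, -3.44 to -2.40 in DCX-DsRed and -2.48 to -2.27 in SVZ cells. Igfbp2 and Slc13a4 gave the largest parts of the sum without Ptgds on every hippocampal Sox2-GFP array. Col8a2 and Ogn were called in the comparison in which the sums without Ptgds differ. Of the 16 on the array 12 or 13 were detected on each hippocampal Sox2-GFP array, and the mesenchymal factor Twist1 was detected on 1 SVZ array and on no hippocampal array. Of 10 endothelial markers, Tek was called higher in the same comparisons as Col4a5, at least 9.84-fold and at least 7.82-fold, while the endothelial sums overlapped between all groups (8.94 to 10.5 in DCX-DsRed, 5.94 to 13.4 in hippocampal Sox2-GFP and 6.67 to 18.8 in SVZ cells). Of 10 mural markers, Vtn was called higher in the hippocampal comparison (14.0-fold, adjusted p = 0.0278), and not without hippocampal Sox2-GFP C (adjusted p = 0.0616). The mural sums lay the other way. They were 34.6 to 36.6 in DCX-DsRed, 26.6 to 30.5 in hippocampal Sox2-GFP and 24.6 to 30.7 in SVZ cells. Acta2 and Tagln gave the largest parts of these sums on every array. The median level of the 10 mural markers on an array overlapped between all groups. It was -2.23 to -0.83 in DCX-DsRed, -1.25 to -0.11 in hippocampal Sox2-GFP and -1.03 to -0.56 in SVZ cells. Oligodendrocyte markers summed to 241 to 304 in DCX-DsRed cells against 1.82 to 38.9 and 21.0 to 77.0 in hippocampal and SVZ Sox2-GFP cells, with 4 of 8 called lower in the hippocampal comparison. Their part in the collagen results was not tested.

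**Figure D5:**
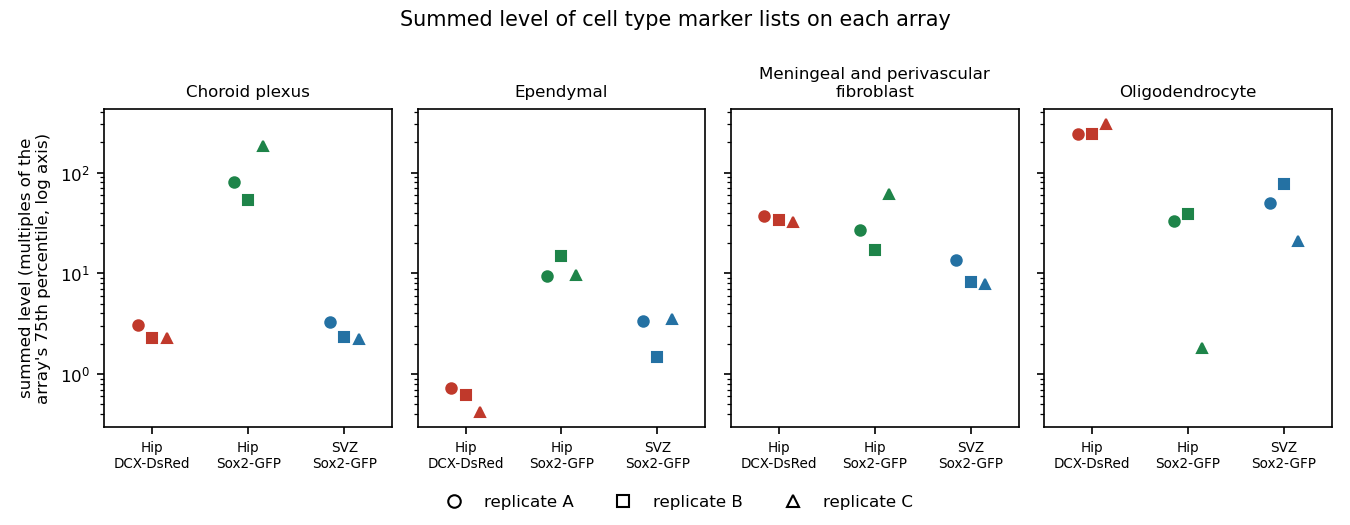
Summed level of 4 marker lists on each array (vertical log axis, in multiples of the array's 75th percentile), with colours for groups and symbols for replicates. Choroid plexus markers reach 52.9 to 181 only in hippocampal Sox2-GFP cells, and the fibroblast sums of that group (17.0 to 61.7) span those of DCX-DsRed (32.6 to 36.7), of which Ptgds alone makes up most (up to 80.7%). Without Ptgds, which is included in the plot, the hippocampal Sox2-GFP sums (12.3 to 37.3) lie above those of DCX-DsRed (6.29 to 9.17).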

How the data were processed

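The deposited files hold unnormalized spots, 1 array each. Intensity was extracted, per the file headers, with Agilent Feature Extraction 9.5.1.1, and the deposited processed signal is the background-subtracted intensity, not yet scaled between arrays. Flags of 0 and 1 stood in other deposited columns. Limma is the only tool in the submitters' processing notes. Control spots and outlier-flagged spots were left out, spots of a probe were averaged, and 464 of 41174 probes were lost. Signals became log2 minus the array's 75th percentile. Gene names are those of the files, taken from an intact file because 1 had been resaved with 47 altered names, and of the member probes 69 matched a RefSeq accession, all to the same symbol. Probe coordinates are not reported, since no source used here names their build.

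A probe was kept if at least 3 of 9 arrays had it well above background, and the brightest kept probe stood for its gene. All 9 arrays were fitted with limma 3.58.1 in R 4.3.3 (lmFit, eBayes), with Benjamini-Hochberg adjustment over 25141 genes and a threshold of 0.05. The fit was tested on simulated data. A gene not well above background in the dimmer group has only a bound, "at least", from the lowest signal well above background on each array. Slide and replicate letter were tried as blocks. The letters were not found to pair the samples (same-letter correlations of deviations from -0.04 to 0.11).

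The members and lists were chosen with earlier results of these data known. Named genes are all called members, the 2 brightest of each role, and up to 5 per direction and comparison with the largest difference among those whose groups did not overlap. Col1a2, Col3a1, Col4a1, Col4a2, Col4a3, Col4a6, Col5a3, Col6a1, Col12a1, Col13a1, Col28a1, Dcn, Islr, Omd, Aldh1a2 and Foxc1 were named after their values were seen.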

Additional observations from a re-analysis of the deposited data

How the results depend on the processing

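Over 28 gene-level results, 508 of 532 alternative values kept their direction and their side of the threshold, 14 passed it and 10 lost it, and 0 reversed. Col4a5 was called in every alternative run. Of all genes, the 798 called between hippocampal Sox2-GFP and DCX-DsRed became 2042 with slide as a fixed block, 479 with the replicate block and 253 (without DCX-DsRed A) to 780 when 1 array was left out. The 389 called for SVZ against DCX-DsRed became 801 with slide as a fixed block, 841 with slide as a random block, 186 with the replicate block and 50 (without DCX-DsRed A) to 856 (without hippocampal Sox2-GFP C) when 1 array was left out. The 98 called between the regions became 162 with normexp background correction, 148 with quantile normalization, 159 with the median over probes, 2157 with slide as a fixed block, 13 with the replicate block, 9 when only the groups compared were fitted, 154 with every probe on its own and 19 (without hippocampal Sox2-GFP A) to 97 when 1 array was left out. The cause was not tested.

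Of the members, the 3 called in the hippocampus became 9 with slide as a fixed block, 6 with every probe on its own, 4 with the median over probes (with Col4a3) and 1 (without DCX-DsRed A, B or C or hippocampal Sox2-GFP A) to 4 (without SVZ B, with Col5a2) when 1 array was left out. The 1 member called for SVZ against DCX-DsRed became 2 with slide as a fixed block, 2 with every probe on its own and 1 to 2 (without SVZ B, with Col5a2) when 1 array was left out. The 0 between regions became 1 with normexp (Ogn), 8 with slide as a fixed block, 1 with slide as a random block (Ogn) and 1 with every probe on its own (Islr), and stayed at 0 when 1 array was left out. With slide as a fixed block, hippocampal Sox2-GFP rests on replicate C alone, since A and B had a slide to themselves. Under it Prelp, Fmod, Lum, Col1a2, Col4a3 and Col6a3 joined the calls in the hippocampus. With only the groups compared, 3 were called there, Col5a2 in place of Ogn (adjusted p = 0.0211 and 0.0609). The replicate block left 2 members called in the hippocampus, with an adjusted p of 0.0711 for Ogn, 1 in the SVZ comparison and 0 between regions, and the letters share only a name. Low signal limits Col4a5, Col28a1, Lum, Col12a1, Foxc1 and Foxc2, which were detected on 3 to 6 of the 9 arrays.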
